A study of Mus musculus with 135 samples.

Results

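The apolipoprotein L genes (Apol) are a family of mouse genes that lie close together on chromosome 15, and 7 of them are described here: Apol11b, Apol11a, Apol8, Apol10b, Apol9a, Apol9b and Apol6. They were taken by symbol from count tables of the cerebral cortex and of the hippocampus, where they are 7 of 55416 genes in each table. The 7 were listed with results of these data already known, and their levels in SS and AA mice may have led to the choice, so the members count as selected on that measure and differences between SS and AA mice are given as a description. Whether a gene passed the threshold of the fit across all genes is stated for them, but is no evidence, since the same measure chose the members. The tables hold 6 other Apol genes, which are used only for comparison.

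Proteins of the apolipoprotein L family bind lipids and act mostly inside cells, although the human founder of the family circulates in blood with high-density lipoprotein. Many family members respond to interferon and other signals of inflammation, and Apol9a and Apol9b are known as interferon-induced genes of the mouse with activity against viruses. Human APOL6, the namesake of mouse Apol6, promotes cell death when it is overproduced. The functions of Apol11a, Apol11b, Apol8 and Apol10b are less well established.

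Bulk polyadenylated RNA was sequenced from the cortex and hippocampus of male Townes mice, in which human globin genes stand in place of the mouse ones. SS mice carry the sickle form of the human beta globin gene and model sickle cell disease, and AA mice carry the normal adult form. Mice were left undisturbed, exposed to repeated social defeat (RSD), in which an aggressive male intruder is placed in the home cage day after day, given the antibiotic minocycline in drinking water, or given both. The question was whether genotype, social stress and minocycline change gene expression in the brain. The cortex gave 66 libraries. Of these, 8 came from undisturbed SS mice, 14 from SS + RSD + minocycline, 4 from SS + minocycline and 6 from SS + RSD mice, and 12 from undisturbed AA mice, 18 from AA + RSD + minocycline, 3 from AA + RSD and 1 from AA + minocycline mice. The hippocampus gave 64, with 11 undisturbed AA mice, 7 undisturbed SS mice and the same numbers in the other groups. All groups share the humanised globin genes. The methods give an age of 6 months for mice exposed to RSD in the first experiment and describe their controls as matched for age. They state no age for the second cohort, in which minocycline was given, and do not tie each library to an age. Levels are given as CPM, counts scaled to the same total of reads on genes in every library, and where different genes are set side by side, CPM per kilobase of exon.

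Reads on genes numbered 16295042 to 107713193 per cortex library and 12869149 to 68731008 per hippocampus library, so that 1 read was worth 0.00928 to 0.0777 CPM. Some libraries stood apart. Mice 5844 (labelled AA) and 5853 (labelled AA + RSD + minocycline) had SS-like levels of Alas2, the first enzyme of heme synthesis in red cell precursors, and mouse 7078 (labelled SS + RSD + minocycline) had an AA-like level. Mouse 9631 (labelled AA) had 1944 and 1570 counts of the mouse globin gene Hbb-bs, against at most 8 in any other library. The libraries of mouse 9674 (labelled AA + RSD) had cortex and hippocampus markers the wrong way round: its cortex library summed to 230.2 CPM of hippocampus markers, against 14.8 to 57 in the other cortex libraries. Its hippocampus library summed to 26.2 CPM of the same markers, against 127 to 548 in the other hippocampus libraries. A further pair of mice, labelled SS + minocycline and AA + RSD + minocycline, shared every count in both tissues, and their 4 libraries were left out. The mouse numbers in the labels form separate number ranges, named series A to C in what follows. All mice with RSD alone were in series A and all with RSD and minocycline in series B or C, so those groups and their series cannot be told apart, while control mice were in A and B. Results on Apol11b are given with all labels as deposited and, where it matters, without mice 5844, 5853, 7078 and 9631.

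Apol11b is the member on which the results turn, and Apol11a is its closest relative. On GRCm39, Apol11b lies on chromosome 15 from 77518146 to 77527487 on the minus strand, and Apol11a from 77392469 to 77402779 on the plus strand. Their promoters are nearly the same sequence: 298 of 300 bases matched (99.3%) in the window from 250 bases before to 50 bases after the start of each gene. The windows below are from RefSeq on GRCm38.p6, 5′ to 3′ along each gene: Apol11b at chr15:77643237-77643536 on the minus strand, Apol11a at chr15:77508019-77508318 on the plus strand, Apol8 at chr15:77756961-77757260 on the minus strand, and the first of the RefSeq entries of Apol9b at chr15:77728822-77729121 on the plus strand. Apol8 is shown as the member of steady level and Apol9b as a known interferon-induced gene. Capitals mark matches to the motifs searched.
Apol11b: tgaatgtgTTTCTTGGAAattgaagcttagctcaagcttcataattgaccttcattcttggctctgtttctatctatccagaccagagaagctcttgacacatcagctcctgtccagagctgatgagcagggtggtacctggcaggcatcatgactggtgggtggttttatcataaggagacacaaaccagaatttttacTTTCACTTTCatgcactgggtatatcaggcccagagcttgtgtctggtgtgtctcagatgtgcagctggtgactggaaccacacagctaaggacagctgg
Apol11a: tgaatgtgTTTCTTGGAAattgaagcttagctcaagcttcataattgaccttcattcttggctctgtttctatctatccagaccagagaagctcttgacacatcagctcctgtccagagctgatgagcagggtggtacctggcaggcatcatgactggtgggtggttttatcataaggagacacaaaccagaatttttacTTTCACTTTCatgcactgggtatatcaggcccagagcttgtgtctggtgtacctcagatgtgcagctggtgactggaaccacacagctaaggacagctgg
Apol8: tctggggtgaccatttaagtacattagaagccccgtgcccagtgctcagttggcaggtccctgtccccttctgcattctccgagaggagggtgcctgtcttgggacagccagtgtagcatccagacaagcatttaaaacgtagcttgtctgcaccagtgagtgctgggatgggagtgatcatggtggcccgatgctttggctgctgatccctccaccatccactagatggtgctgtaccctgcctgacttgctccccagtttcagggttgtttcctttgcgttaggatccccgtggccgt
Apol9b: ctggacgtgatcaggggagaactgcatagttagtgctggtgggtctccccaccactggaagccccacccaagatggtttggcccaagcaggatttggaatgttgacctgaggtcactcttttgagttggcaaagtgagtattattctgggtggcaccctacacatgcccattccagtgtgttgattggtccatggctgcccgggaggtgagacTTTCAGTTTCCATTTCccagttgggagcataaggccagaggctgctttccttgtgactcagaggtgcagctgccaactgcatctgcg

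The motifs were searched on both strands: the core of the interferon-stimulated response element (ISRE), TTCNNNGAA, a palindrome of the kind bound by STAT factors, a longer STAT and ISRE-like site that contains it, and AGATAA, a site of GATA factors. Of 32851 promoters of the same length, 3.44% held the ISRE core, 8.3% TTCNNNGAA, 1.52% the longer site and 11.2% AGATAA. Of the 7 members, 6 had a promoter in the table, the exception being Apol6. The ISRE core was present in 5 of the 6: Apol11a, Apol11b, Apol10b, Apol9a and Apol9b. In Apol11a and Apol11b it began 50 bases before the start on the opposite strand, and in the Apol9b window shown there were overlapping matches beginning 37 and 31 bases before the start. The longer STAT and ISRE-like match of Apol11a and Apol11b began 242 bases before the start and contains the TTCNNNGAA match. AGATAA was in none of the 6, and Apol8 held none of the motifs. Other forms of GATA site, such as TGATAA, were not searched. The absence of AGATAA therefore does not show that these promoters lack GATA sites. A match describes letters in this window and is no measure of binding.

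The 7 genes differed widely in level, as the plot of CPM per kilobase shows. Over all libraries of the cortex and hippocampus, Apol11b averaged 2.01 and 1.80 CPM per kilobase and Apol8 1.22 and 1.29. The other members were far lower: Apol9b averaged 0.0996 and 0.0526, Apol10b 0.0950 and 0.0841, Apol11a 0.0197 and 0.0171, Apol9a 0.0144 and 0.00910, and Apol6 0.0140 and 0.00668 CPM per kilobase. In AA mice alone the order of the first pair was the other way: Apol8 averaged 1.29 and 1.35 CPM per kilobase and Apol11b 0.211 and 0.164.

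**Figure D1:**
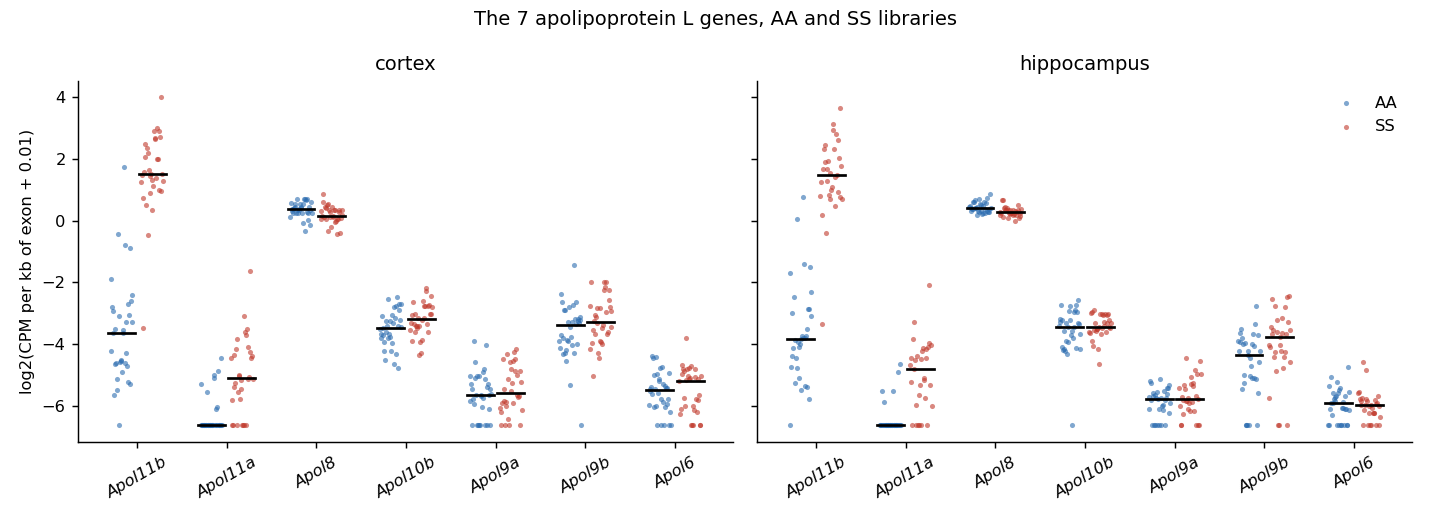
Level of each Apol member in every library of the cortex and hippocampus, on the log2(CPM per kilobase + 0.01) scale, with AA libraries in blue, SS libraries in red and medians in black; libraries with no read sit at the bottom. Apol8 forms a narrow band in both genotypes, Apol11b separates into a low AA and a high SS cloud, and the other 5 members are thinly covered.

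Group means of Apol11b in the cortex were 7.65 to 15.5 CPM in SS mice and 0.280 to 0.915 CPM in AA mice. In bulk tissue, fewer cells of a type and less RNA per cell cannot be told apart, which holds for this and every level below. In the cortex, the 8 SS mice ranged from 1.74 to 13.7 CPM with a median of 7.14, and the mean was 7.75 ± 4.2 (SD). The 12 libraries labelled AA ranged from 0.0245 to 8.13 CPM with a median of 0.186 and a mean of 0.915 ± 2.30. The highest of these was mouse 5844, and without mice 5844 and 9631 the AA mean was 0.282 ± 0.382 CPM (n = 10). In the hippocampus, the 7 SS mice ranged from 1.84 to 13.5 CPM with a median of 8.38 and a mean of 8.10 ± 4.13. The 11 libraries labelled AA ranged from 0.0200 to 4.13 CPM, median 0.143 and mean 0.572 ± 1.2, and without mice 5844 and 9631 the mean was 0.238 ± 0.251 CPM (n = 9). With those mice left out, the SS and AA controls did not overlap in either tissue.

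The pattern was the same after RSD. In the cortex, the 3 AA + RSD mice had 0.273, 0.352 and 0.433 CPM of Apol11b, and the 6 SS + RSD mice ranged from 4.72 to 39.2 CPM with a median of 12.9. Hippocampus libraries of the AA + RSD mice had 0.311, 0.311 and 0.475 CPM, and the SS + RSD mice ranged from 4.14 to 31.2 CPM with a median of 8.48. Mouse 9674, whose tissue labels are in doubt, gave the highest AA + RSD value in both tissues, 0.433 and 0.475 CPM, so an exchange of its libraries would alter the values little. In both tissues all 6 SS + RSD mice were above all 3 AA + RSD mice.

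With RSD and minocycline together, the 14 SS libraries ranged from 0.195 to 19.7 CPM in the cortex, with a median of 6.56 and a mean of 7.65 ± 5.04. The lowest was mouse 7078. The 18 AA libraries ranged from 0 to 1.78 CPM, with a median of 0.0911, and the highest was mouse 5853. In the hippocampus the SS libraries ranged from 0.214 to 17.2 CPM, median 5.60, and the AA libraries from 0 to 2.54 CPM, median 0.133. Mice 7078 and 5853 were again the lowest SS and the highest AA library.

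Minocycline alone was given to 4 SS mice and 1 AA mouse. The SS + minocycline mice had 5.86, 6.80, 15.9 and 18.3 CPM of Apol11b in the cortex and 4.30, 5.81, 18.8 and 21.3 CPM in the hippocampus. The AA + minocycline mouse had 0.635 and 0.729 CPM, and with 1 mouse its group has no measure of spread. In each tissue the SS + minocycline mice formed a lower and a higher pair. The lower pair was in series C and the higher pair in series B, so pair and series cannot be told apart.

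**Figure D2:**
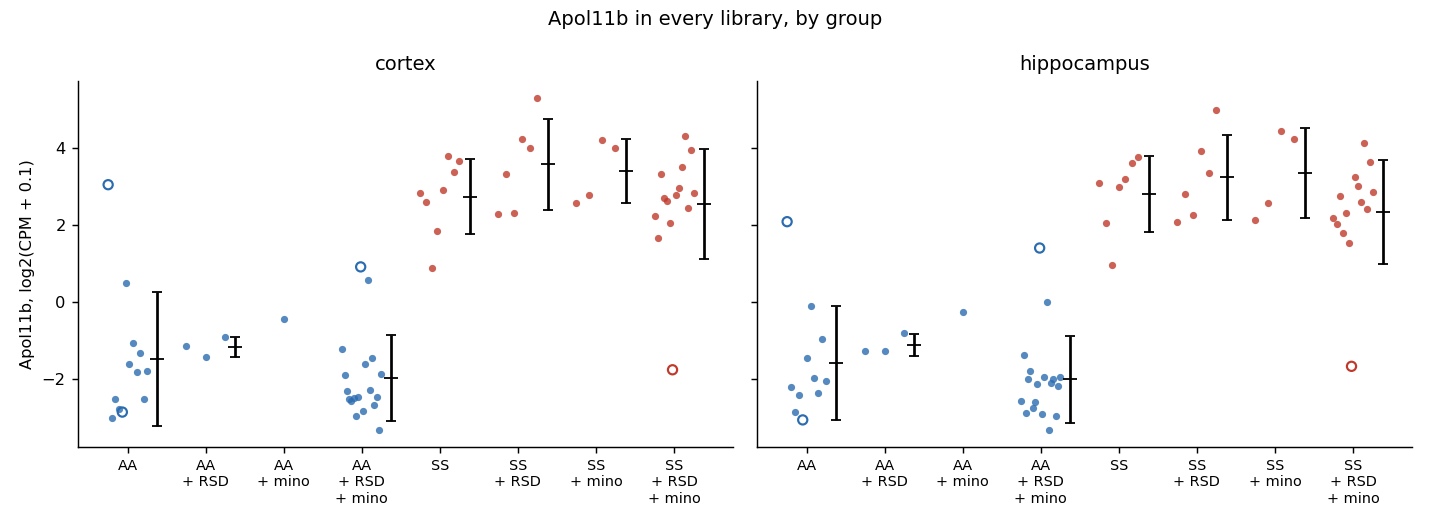
Apol11b in every library by group, cortex and hippocampus, on the log2(CPM + 0.1) scale; black bars give the mean ± SD of the log2 values and open circles mark mice 5844, 5853, 7078 and 9631. The SS groups lie above the AA groups in both tissues, and the open circles of mice 5844, 5853 and 7078 lie within the range of the opposite genotype.

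In all, 13 of 32 SS libraries of the cortex and 25 of 31 of the hippocampus lay above every AA library as labelled. Without mice 5844, 5853, 7078 and 9631 these became 31 of 31 and 30 of 30. The lowest SS value was then 1.74 CPM in the cortex and 1.84 CPM in the hippocampus (both mouse 5785), and the highest AA value 1.38 and 0.905 CPM (both mouse 5898). The median of SS libraries was 40.8 times that of AA libraries in the cortex and 46.3 times in the hippocampus as labelled, and 41 and 48.1 times without the 4 mice. Of these mice 3 were singled out by Alas2, the gene whose pattern is most like that of Apol11b, so the clean separation without them is no independent evidence.

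Ordered by group mean, Apol11b in the cortex fell from SS + RSD (15.5 ± 12.9 CPM) through SS + minocycline (11.7 ± 6.31), SS (7.75 ± 4.2) and SS + RSD + minocycline (7.65 ± 5.04) to AA (0.915 ± 2.30), AA + minocycline (0.635), AA + RSD (0.352 ± 0.0797) and AA + RSD + minocycline (0.280 ± 0.486). In the hippocampus the order was SS + minocycline (12.5 ± 8.74), SS + RSD (12 ± 10.2), SS (8.10 ± 4.13), SS + RSD + minocycline (6.52 ± 4.27), AA + minocycline (0.729), AA (0.572 ± 1.2), AA + RSD (0.366 ± 0.0947) and AA + RSD + minocycline (0.289 ± 0.595). Neighbours within a genotype overlapped in range in both orders, except the single AA + minocycline mouse, whose group has no range. The lowest SS group also overlapped its AA neighbour in each order as labelled, through mice 5844 and 7078 in the cortex and mouse 7078 in the hippocampus, and did not without mice 5844, 5853, 7078 and 9631.

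In the models across all genes, Apol11b was 3.03 ± 0.66 (SE) higher on the log2 scale in SS than AA mice in the cortex and 3.78 ± 0.67 higher in the hippocampus. After RSD the differences were 5.42 ± 1.37 and 5.01 ± 1.29, and with RSD and minocycline 4.90 ± 0.59 and 4.70 ± 0.56. A gene is called here where its Benjamini-Hochberg adjusted p over all genes tested is under 0.05 by the quasi-likelihood test of edgeR. All 7 members passed the filter on low counts in the cortex in the model of all groups, and 5 in the hippocampus, where Apol6 and Apol9a did not pass. Apol11b was the 1 member called in SS against AA mice in each tissue, where 0.214% and 0.159% of all genes were called. The cortex call was lost within number series A, within series B and in a model of only the groups compared, and the hippocampus call within series A. Apol11b was also the 1 member called in SS + RSD against AA + RSD mice, beside 0.493% and 0.78% of all genes. That call rests on 3 AA + RSD mice, and it was lost in both tissues when any of the 3, or SS + RSD mouse 9621, was left out. In SS + RSD + minocycline against AA + RSD + minocycline mice, Apol11b and Apol11a were called in both tissues, beside 0.624% and 2.74% of all genes. These counts describe how the members were chosen.

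Apol11a was hardly detected outside SS mice. It had no read in 26 of 34 AA libraries of the cortex and 28 of 33 of the hippocampus, but in 7 of 32 and 6 of 31 SS libraries. In the cortex, the 34 AA libraries averaged 0.0106 ± 0.0233 CPM and the 32 SS libraries 0.0973 ± 0.152 CPM. In the hippocampus the averages were 0.00679 ± 0.0186 and 0.0874 ± 0.113 CPM. The largest count was 35 reads in the cortex of SS + RSD mouse 9621, which was also the library of highest Apol11b. AA libraries summed to 12 reads in the cortex and 9 in the hippocampus, and SS libraries to 128 and 114. With RSD and minocycline, Apol11a was 2.87 ± 0.66 higher in SS than AA mice in the cortex and 3.24 ± 0.65 higher in the hippocampus on the log2 scale. Of the 85-base stretches in its exons, 3.10% also occur in other genes, and of those of Apol11b 7.64%. Some reads of the pair could therefore not be assigned, and the part of this in the low level of Apol11a was not tested.

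Apol8, on GRCm39 chromosome 15 from 77630218 to 77641203, was steady. Its 34 AA libraries of the cortex ranged from 3.91 to 8.10 CPM with a mean of 6.44 ± 1.03, and its 32 SS libraries from 3.61 to 9.00 CPM with a mean of 5.75 ± 1.13. In the hippocampus the means were 6.75 ± 0.788 and 6.10 ± 0.681 CPM. The ranges overlapped over most of their length in both tissues. In the model, SS and AA controls differed by 0.00 ± 0.13 on the log2 scale in the cortex. The largest difference between genotypes in the cortex was with RSD and minocycline, where Apol8 was lower in SS mice by a log2 change of -0.30 ± 0.10, which was not called.

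The remaining members were too thinly covered for firm statements. Apol10b averaged 0.291 ± 0.129 CPM in AA and 0.361 ± 0.144 CPM in SS libraries of the cortex, and 0.282 ± 0.123 and 0.293 ± 0.0789 CPM in the hippocampus. Apol9b averaged 0.162 ± 0.115 and 0.202 ± 0.117 CPM in the cortex, and 0.0712 ± 0.0553 and 0.122 ± 0.0876 CPM in the hippocampus. Apol9a averaged 0.0780 ± 0.0797 and 0.0938 ± 0.0820 CPM in the cortex, and Apol6 0.0946 ± 0.0758 and 0.107 ± 0.0938 CPM. Genotypes overlapped for each of these genes, and their highest counts in any cortex library were 51 for Apol10b, 34 for Apol9b, 21 for Apol9a and 16 for Apol6. Apol9a and Apol9b share 12.9% and 38.9% of their 85-base exonic stretches with each other, so reads may be lost or divided between them. Exons of Apol6 overlap those of Mb on the opposite strand over 3.97% of their bases, and the strand setting of the counting is not given in the sources used here.

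The comparisons of RSD and of minocycline within each genotype were tested, on the reading that the members were chosen for their levels in SS and AA mice. No member was called in any of them. In SS + RSD against SS mice 4 members were tested (Apol11b, Apol8, Apol10b and Apol9b) and 0 were called, beside 2.57% (cortex) and 3.11% (hippocampus) of all genes. Apol11b was 1.13 ± 0.54 higher on the log2 scale after RSD in the cortex (adjusted p = 0.175, edgeR) and 0.65 ± 0.57 higher in the hippocampus (adjusted p = 0.545). The SS + RSD range of 4.72 to 39.2 CPM overlapped the SS range of 1.74 to 13.7 CPM in the cortex, with 3 of 6 SS + RSD mice above every SS mouse. Without mouse 9621 the differences were 0.61 (adjusted p = 0.490) and 0.14 (adjusted p = 0.926). Apol8 changed by -0.18 ± 0.16 in the cortex (adjusted p = 0.462).

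Minocycline without RSD was compared in SS mice only, with 0 of the 4 members tested called and 0.0% of all genes in each tissue. Apol11b differed by 0.68 ± 0.61 in the cortex (adjusted p = 0.844) and 0.75 ± 0.64 in the hippocampus (adjusted p = 0.981). In SS + RSD + minocycline against SS + RSD mice, 0 of 4 members were called, beside 8.85% (cortex) and 5.96% (hippocampus) of all genes. Apol11b was lower with minocycline, by a log2 change of -1.12 ± 0.47 in the cortex (adjusted p = 0.126) and -0.89 ± 0.49 in the hippocampus (adjusted p = 0.239). Without mouse 9621 these were -0.61 and -0.37. The mice of these groups come from separate number series, and the ranges of 0.195 to 19.7 and 4.72 to 39.2 CPM in the cortex overlapped. In SS + RSD + minocycline against SS mice 0 of 4 members and 0.0% of all genes were called in each tissue, and Apol11b differed by 0.00 ± 0.45 and -0.23 ± 0.48.

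In AA mice 5 members were tested in the cortex and 3 in the hippocampus, and 0 were called in AA + RSD against AA mice, beside 0.853% and 1.19% of all genes. Apol11b changed by -1.36 ± 1.39 and -0.63 ± 1.29 on the log2 scale, values that mouse 5844 moves: without mice 5844, 5853, 7078 and 9631 they were 0.33 and 0.60. In AA + RSD + minocycline against AA + RSD mice 0 members were called, beside 3.6% and 2.67% of all genes, and Apol11b changed by -0.47 ± 1.24 and -0.46 ± 1.19. Against AA mice without treatment 0 members were called, beside 0.0319% and 0.0% of all genes, and Apol11b changed by -1.83 ± 0.73 (adjusted p = 0.669) and -1.09 ± 0.71 (adjusted p = 1.00). The interaction of genotype and RSD for Apol11b was 2.39 ± 1.38 in the cortex and 1.23 ± 1.33 in the hippocampus (adjusted p = 1.00 in each), with 0 members called beside 0.236% and 0.0474% of all genes. Over all these comparisons, members had an unadjusted p under 0.05 in 3 cases, all of Apol11b in the cortex: SS + RSD against SS, SS + RSD + minocycline against SS + RSD, and AA + RSD + minocycline against AA. The Wald test of DESeq2 also called 0 members in each of them.

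**Figure D3:**
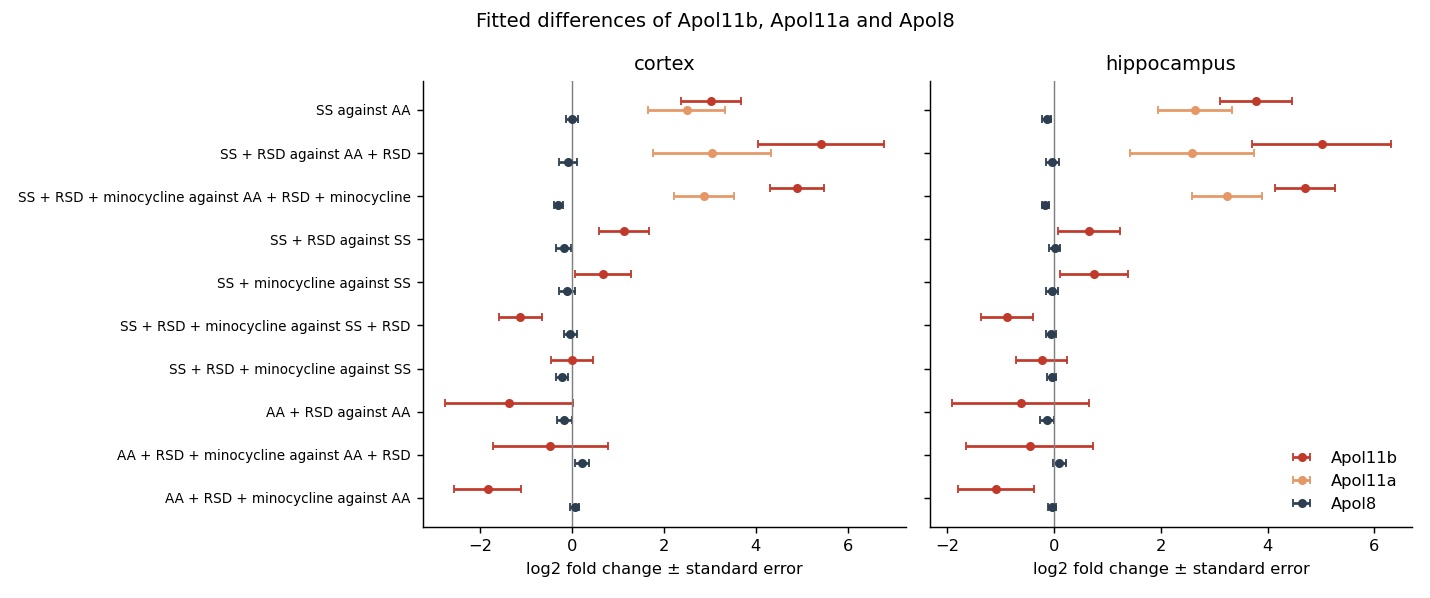
Log2 fold change ± SE of Apol11b, Apol8 and, where tested, Apol11a in the pairwise comparisons of groups within each tissue; the interaction of genotype and RSD is not drawn. Apol11b lies 3.03 to 5.42 above 0 in the genotype comparisons, its other differences lie between -1.83 and 1.13, and Apol8 lies near 0 throughout.

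The levels of Apol11b in the cortex and hippocampus of the same mouse were compared within each genotype. In 30 SS mice, without mouse 7078, log2(CPM + 0.1) in the tissues had a Pearson r of 0.92 (permutation p = 1e-05, the smallest these 100000 permutations can give, adjusted 5.5e-05 over 22 relations) and a Spearman rho of 0.91 (permutation p = 1e-05, adjusted 0.00011). It was 0.88 without the 2 mice farthest from the median, and 0.96 and 0.90 within number series A and B. With mouse 7078 included r was 0.96. The hippocampus held a median of 0.876 times the cortex level, and was lower in 19 of 30 mice. In 30 AA mice r was 0.69 (permutation p = 3e-05, adjusted 0.00011) and rho 0.55 (permutation p = 0.00177, adjusted 0.00389), and r was 0.52 without the 2 farthest mice and 0.64 within series B. For Apol8 the same relation gave r = 0.62 in SS mice (permutation p = 0.0004, adjusted 0.00088; rho 0.45, permutation p = 0.0144, adjusted 0.0211), which was 0.38 without the 2 farthest and 0.74 and 0.62 within series A and B, and 0.05 in AA mice (permutation p = 0.799, adjusted 0.799; rho 0.07, permutation p = 0.713, adjusted 0.747). Mice of high Apol11b in one tissue, paired by the mouse number in the labels, were thus the mice of high Apol11b in the other.

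**Figure D4:**
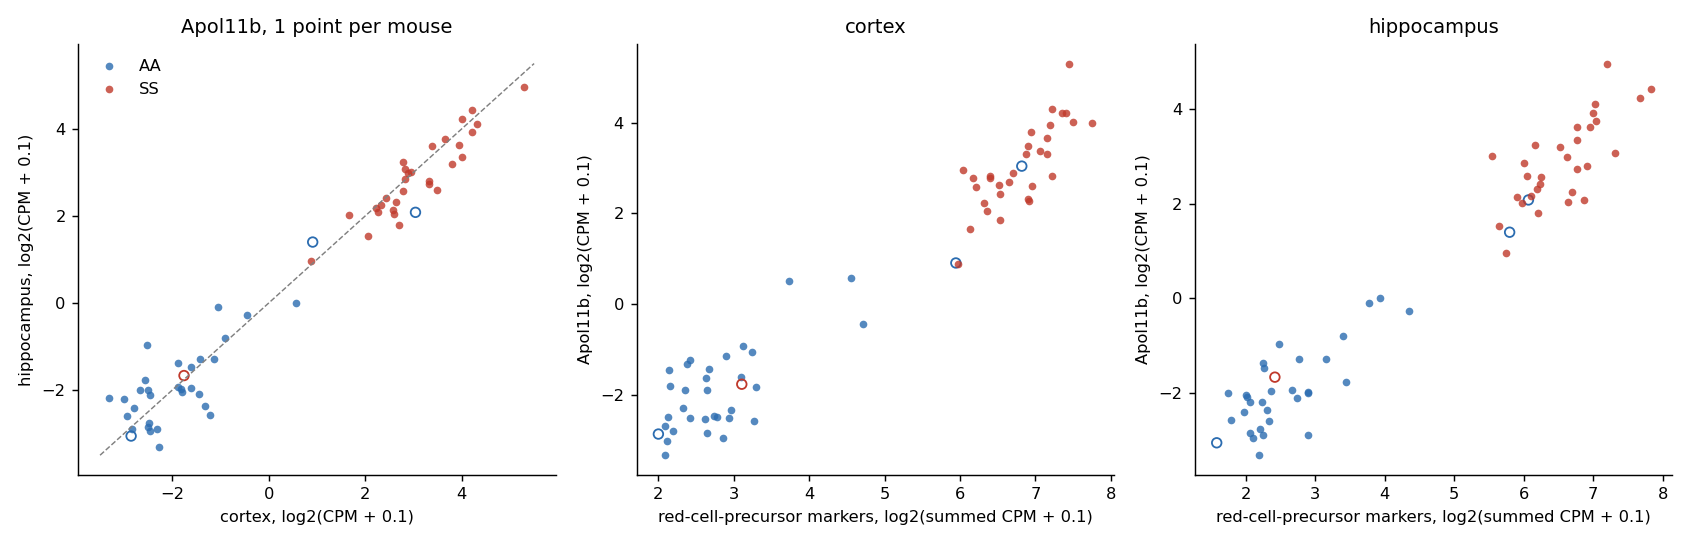
Apol11b in the cortex against the hippocampus of the same mouse (left, dashed line for equal levels), and Apol11b against the summed CPM of red cell precursor genes in the cortex (middle) and hippocampus (right), all on log2 scales; AA blue, SS red, open circles mice 5844, 5853, 7078 and 9631. Without mouse 7078, the SS mice follow the dashed line over a wide range (r = 0.92 in 30 mice). In both tissues Apol11b rises with the precursor genes within these SS mice (r = 0.79 and 0.74).

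The genes with the pattern most like Apol11b over all libraries were genes of red cell precursors. Over 66 cortex libraries and 20237 genes, the highest Spearman correlations with Apol11b were those of Alas2 (0.92), Slc4a1 (0.91), the anion exchanger of the red cell membrane, and Fam46c (0.91), a poly(A) polymerase. Over 64 hippocampus libraries and 20414 genes they included those of Alas2 (0.92) and Slc4a1 (0.91). These libraries include both genotypes, so any gene that separates them ranks high. For Apol11a the closest were Alas2 (0.71), Slc4a1 (0.71) and Trim10 (0.70), a gene of red cell precursors, in the cortex, and Epb42 (0.77), protein 4.2 of the red cell membrane, Fam46c (0.77) and Apol11b (0.77) in the hippocampus. For Apol8 they were Pnkd, Vamp1 and Fam234b (0.63, 0.63 and 0.62) in the cortex, where its correlation with Apol11b was -0.45, and Rtn4ip1, Rad21l and Cyp2j13 (0.52, 0.51 and 0.50) in the hippocampus, where it was -0.47. Apol10b was closest to Ecscr (0.66), a gene of endothelial cells, in the cortex and to Cdyl (0.54) in the hippocampus. Apol9b was closest to Gnb5 (0.48) and Gm15795 (0.50), and in the cortex Apol9a to Zfp521 (0.53) and Apol6 to Usp3 (0.62).

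A list of 16 genes of red cell precursors, of which 15 were found, moved with Apol11b. The list was chosen with earlier results of these data known, so its relation to Apol11b is no independent evidence. With all labels as deposited, the summed level of these genes in the cortex was 3.90 to 113 CPM in AA libraries (median 6.22) and 8.52 to 216 CPM in SS libraries (median 118). In the hippocampus it was 2.89 to 67 CPM (median 4.94) and 5.25 to 227 CPM (median 98.7), and none of the genes was at 0 in every library. Without mouse 7078 the lowest SS sum was 63 CPM in the cortex and 46.5 CPM in the hippocampus. In SS against AA mice 7 of 13 tested in the cortex, and 7 of 12 in the other tissue, were called higher. Of all genes, 0.214% and 0.159% were called there. In SS + RSD against AA + RSD mice 6 and 5 were called higher, beside 0.493% and 0.78% of all genes. With RSD and minocycline 8 and 9 were called higher in SS than AA mice, beside 0.624% and 2.74% of all genes. In SS + RSD + minocycline against SS + RSD mice 2 of 9 fell in the cortex: Epb42 by 1.14 ± 0.36 and Slc4a1 by 1.11 ± 0.35 on the log2 scale, adjusted p = 0.0426 and 0.0409 by edgeR, beside 8.85% of all genes called. In the other RSD and minocycline comparisons within SS or AA mice 0 were called. Within 31 SS mice of the cortex, Apol11b and the sum of the list had r = 0.79 (permutation p = 1e-05, adjusted 5.5e-05; rho 0.78, permutation p = 1e-05, adjusted 0.00011), which was 0.76 without the 2 farthest mice and 0.89 and 0.84 within series A and B. In the hippocampus (n = 30) r was 0.74 (permutation p = 1e-05, adjusted 5.5e-05; rho 0.71, permutation p = 4e-05, adjusted 0.000293), 0.76 without the 2 farthest mice and 0.64 and 0.80 within series A and B. In AA mice r was 0.69 (permutation p = 9e-05, adjusted 0.000247; rho 0.51, permutation p = 0.00446, adjusted 0.00818) in the cortex and 0.74 (permutation p = 3e-05, adjusted 0.00011; rho 0.63, permutation p = 0.00028, adjusted 0.00123) in the hippocampus, and 0.52 and 0.61 without the 2 farthest mice.

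Set against these genes, Apol11b had a higher mean ratio in SS than AA mice, with ranges that overlapped. Without mice 5844, 5853, 7078 and 9631, there were 7.96 ± 3.77 counts of Apol11b per 100 counts of the precursor genes in 31 SS libraries of the cortex and 2.89 ± 2.30 in 31 AA libraries. In the hippocampus the ratios were 8.58 ± 4.01 and 3.0 ± 1.93 (n = 30 each). The ratio ranged from 2.76 to 22.4 in SS and 0 to 9.94 in AA libraries of the cortex, and from 3.44 to 21.4 and 0 to 7.56 in the hippocampus. SS + RSD mouse 9621 had the highest ratio in both tissues, 22.4 and 21.4. Whether Apol11b reads came from red cell precursors in the blood of the tissue piece was not tested.

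For white blood cell genes (10 of 11 found) the relation with Apol11b varied between groups. Over all SS mice r was 0.63 in the cortex (permutation p = 0.00016, adjusted 0.000391) and 0.58 in the hippocampus (permutation p = 0.00087, adjusted 0.00159). Spearman's rho was 0.60 (permutation p = 0.00045, adjusted 0.00141) and 0.54 (permutation p = 0.00216, adjusted 0.00432). Without the 2 farthest mice r was 0.52 and 0.63, and within series A and B 0.58 and 0.66 (cortex) and 0.68 and 0.54 (hippocampus). Within undisturbed SS mice r was 0.28 in the cortex (n = 8) and 0.03 in the hippocampus (n = 7), against 0.75 and 0.78 in SS + RSD mice (n = 6) and 0.80 and 0.61 in SS + RSD + minocycline mice (n = 13), a difference that was not tested. Their summed level was 6.26 to 24.2 CPM in AA and 6.94 to 29.6 CPM in SS libraries of the cortex. In SS against AA mice 0 of 9 tested were called in either tissue, beside 0.214% and 0.159% of all genes. With RSD and minocycline 5 in the cortex and 3 in the hippocampus were called higher in SS mice. Of all genes, 0.624% and 2.74% were called there. For 9 endothelial genes r in SS mice was 0.28 in the cortex (permutation p = 0.127, adjusted 0.164) and 0.41 in the hippocampus (permutation p = 0.0249, adjusted 0.0343). The Spearman coefficient was 0.33 (permutation p = 0.0698, adjusted 0.0853) and 0.46 (permutation p = 0.0101, adjusted 0.0172), and r without the 2 farthest mice 0.31 and 0.41. Within series A and B r was 0.30 and 0.18 (cortex) and 0.31 and 0.44 (hippocampus). With mouse 7078 included, r over all SS mice was 0.51 in the cortex (permutation p = 0.00272, adjusted 0.00399). In the hippocampus it was then 0.62 (permutation p = 0.00045, adjusted 0.000825). The endothelial relation was thus weaker without this mouse, but in the hippocampus its adjusted p stayed under 0.05. Including mouse 7078 also raised r for the white blood cell genes, to 0.71 in the cortex and 0.66 in the hippocampus. For the red cell precursor genes r was then 0.89 and 0.86. Of the 9 endothelial genes, 2 were called higher in SS against AA mice in each tissue, Kdr and Esam, beside 0.214% and 0.159% of all genes. With RSD and minocycline Flt1 alone was called between genotypes, in the hippocampus, beside 2.74% of all genes. In SS + RSD against AA + RSD mice 0 were called. In SS + RSD + minocycline against SS + RSD mice, 3 fell in the cortex (Pecam1, Tek and Cdh5) and 2 in the hippocampus (Kdr and Pecam1), beside 8.85% and 5.96% of all genes. Of 7 microglia genes 1 fell in that comparison in each tissue, Tmem119 in the cortex and Cx3cr1 in the hippocampus. All 8 choroid plexus genes were called higher in the cortex of AA + RSD against AA mice, beside 0.853% of all genes. The AA + RSD group holds mouse 9674. In SS against AA mice 2 of the 8, Ttr and Slc4a5, were called higher in the cortex, beside 0.214% of all genes, and 0 in the hippocampus. The part of choroid plexus in the levels of the Apol genes was not tested.

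Because family members are known to respond to interferon, 33 interferon-stimulated genes were set beside them. All 33 were tested, and in SS against AA mice 2 were called higher in each tissue: Rsad2, the antiviral enzyme viperin, by 2.34 ± 0.33 and 2.84 ± 0.31, and Isg15, a ubiquitin-like protein, by 2.0 ± 0.42 and 2.13 ± 0.42 on the log2 scale. Of all genes, 0.214% (cortex) and 0.159% (hippocampus) were called in that comparison. There the median of the list was 0.25 in the cortex and 0.32 in the hippocampus, against 0.00 and 0.01 over all genes. In SS + RSD against AA + RSD mice Rsad2 alone was called, higher in each tissue, beside 0.493% and 0.78% of all genes. With RSD and minocycline 5 were called higher in SS mice in the cortex and 2 in the hippocampus. Of all genes, 0.624% and 2.74% were called there. These counts are a description. After RSD in SS mice 0 of 33 were called in either tissue. In SS + RSD + minocycline against SS + RSD mice 2 rose in the cortex, Irf9 by 0.57 ± 0.15 and Stat2 by 0.44 ± 0.14 (adjusted p = 0.0213 and 0.0393, edgeR), and 0 in the hippocampus. In that comparison 8.85% (cortex) and 5.96% (hippocampus) of all genes were called, so 2 of 33 is no result about the list. Irf9 and Stat2 are known as parts of a factor that carries the interferon signal. Within SS mice, Apol11b and the summed level of the list had r = 0.24 in the cortex (permutation p = 0.198, adjusted 0.242; rho 0.34, permutation p = 0.0584, adjusted 0.0756) and 0.43 in the hippocampus (permutation p = 0.0175, adjusted 0.0257; rho 0.58, permutation p = 0.00097, adjusted 0.00267). Without the 2 farthest mice r was 0.26 and 0.45, and within series A and B 0.40 and 0.23 (cortex) and 0.47 and 0.34 (hippocampus). Within AA mice r was 0.05 and 0.06 (permutation p = 0.782 and 0.747, adjusted 0.799 in each) and rho 0.01 and 0.09 (adjusted 0.938 and 0.712). Apol9a and Apol9b, the members known as interferon-induced, were not called in any comparison of genotype, RSD or minocycline in which they were tested.

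Apol11a followed Apol11b within SS mice, with r = 0.58 in the cortex (permutation p = 0.00057, adjusted 0.00114) and rho = 0.45 (permutation p = 0.0124, adjusted 0.0194). In the hippocampus r was 0.66 (permutation p = 4e-05, adjusted 0.000126) and rho 0.61 (permutation p = 0.00041, adjusted 0.00141). Without the 2 farthest mice r was 0.36 and 0.54, and within series A and B it was 0.74 and 0.44 (cortex) and 0.94 and 0.55 (hippocampus). The SS libraries held a median of 2 reads of Apol11a in the cortex and 3 in the hippocampus, so the relation is coarse.

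The hippocampus and cortex were compared over all groups. Of the 7 members 3 were called, all lower in the hippocampus, but 52.8% of all genes were called in this comparison, so the share is no result about these genes. Apol6 was lower by 0.98 ± 0.23 on the log2 scale (adjusted p = 0.000148, edgeR), with a mean of 0.101 ± 0.0846 CPM in 66 cortex libraries and 0.0483 ± 0.0471 CPM in 64 hippocampus libraries. Apol9b was lower by 0.91 ± 0.18 (adjusted p = 9.64e-06), with means of 0.182 ± 0.117 and 0.0960 ± 0.0766 CPM. Apol9a was lower by 0.61 ± 0.25 (adjusted p = 0.0296), with means of 0.0856 ± 0.0806 and 0.0542 ± 0.0452 CPM. Apol11b differed by -0.20 ± 0.26 (adjusted p = 0.566), Apol11a by -0.21 ± 0.29 (adjusted p = 0.590) and Apol10b by -0.18 ± 0.11 (adjusted p = 0.183). Apol8 was 0.08 ± 0.04 higher in the hippocampus (adjusted p = 0.0931). With the mouse as a block, since both tissues came from the same mice, this became 0.10 ± 0.04 with an adjusted p of 0.0139, so that 4 members were called. Among the other Apol genes, 5 were tested: Apol7b, Apol10a and Apol7a were lower in the hippocampus by 3.25 ± 0.28, 1.07 ± 0.31 and 0.93 ± 0.20, Apol7d, a long noncoding RNA on chromosome 1, was 1.74 ± 0.29 higher, and Apol7e differed by -0.24 ± 0.28 (adjusted p = 0.508).

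**Figure D5:**
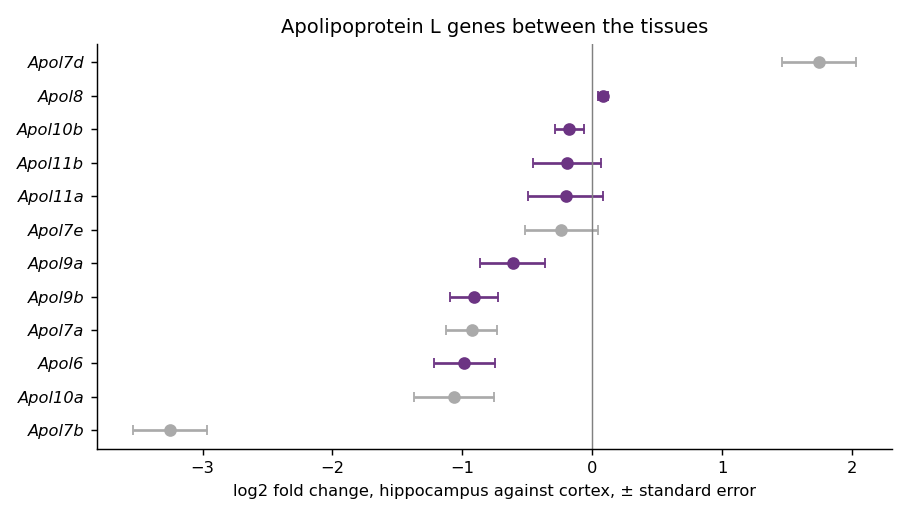
Log2 fold change ± SE of each tested Apol gene in the hippocampus against the cortex, members in purple and other Apol genes in grey. Apol6, Apol9b and Apol9a lie at -0.98, -0.91 and -0.61, Apol11b, Apol11a, Apol10b and Apol8 lie near 0, and Apol7b and Apol7d are the extremes at -3.25 and 1.74.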

How the data were processed

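Per the study's methods, polyadenylated RNA was made into stranded libraries and read as single 85-base reads, and the authors aligned reads to GRCm39 with STAR. The deposited values are raw counts per gene. The annotation release and the strand setting of the counting are not given in the sources used here. Of 134 libraries with a group, 4 with identical counts were left out, 1 sample had no group in the labels, and 3 columns matched no library with a known group and were not used. Groups came from the labels. Counts were tested per tissue with the quasi-likelihood test of edgeR 4.0.16 (R 4.3.3, TMM, filterByExpr with a minimum count of 10 and a minimum total of 15), with Benjamini-Hochberg adjustment over all genes tested and a threshold of 0.05. DESeq2 1.42.0 was an alternative. Genotype and interaction came from models of all groups, and RSD and minocycline from models within a genotype. Fold changes are fitted log2 values. CPM divides by all reads on genes, and relations used log2(CPM + 0.1). The Apol genes and the lists (interferon-stimulated genes, red cell precursors, white blood cells, endothelial cells, microglia, choroid plexus, cortex and hippocampus markers) were chosen with earlier results of these data known. All members are named. Same-numbered libraries of both tissues came from the same mouse per the labels. The correlation of their deviations from group means over 19720 genes was -0.185 to 0.860 in 63 mice, above 0.1 in 62. In 33 of the 63 mice the cortex library correlated best with the hippocampus library of its own number, and in the rest with that of another mouse. One gene whose pattern was close to that of Apol11b is not reported here. Scripts were tested on simulated data.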

Additional observations from a re-analysis of the deposited data

Results flagged for a closer look

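Sets of 4 to 10 libraries of 1 group, gene and tissue were searched for a library far from its nearest neighbour. In 5 of 42 sets that distance took up an unusually large part of the whole range. Chance gives about 1 in 20 for independent, normally distributed values. Some of these sets hold a few reads per library, and mouse 9621 recurs in both tissues, so 5 of 42 cannot be set against that rate. SS + RSD mouse 9621 stood above the other 5 mice of its group for Apol11a, at 0.835 CPM in the cortex (35 reads, nearest 0.129 CPM) and 0.604 CPM in the hippocampus (18 reads, nearest 0.146 CPM). Apol9a in the cortex was 0.192 CPM in SS + minocycline mouse 9888 (4 reads, nearest 0.0386 CPM). In the hippocampus of SS mice, Apol9b was 0.293 CPM in mouse 9822 (11 reads, nearest 0.138 CPM) and Apol6 was 0.225 CPM in mouse 9824 (13 reads, nearest 0.0619 CPM).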

How the results depend on the processing

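The counts of members called kept within 1.5 times of the reported count in 189 of the recomputed values and moved further in 25. The call of Apol11b in SS against AA mice (1 member) became 0 in the cortex within number series A, within series B and in a model of only the groups compared, and 0 in the hippocampus within series A. In SS + RSD against AA + RSD mice it became 0 in both tissues with no filter on low counts, within series A, in a model of only the groups compared, without mouse 9674 and without mouse 9621, the last chosen after seeing the data; leaving out each AA + RSD mouse in turn gave 0 to 0. Its log2 difference stayed at 4.96 to 5.60 in the cortex and 4.48 to 5.30 in the hippocampus. With RSD and minocycline the 2 members became 1 in both tissues within series B and in a model of only the groups compared, and 1 in the hippocampus by DESeq2. For Apol11b, SS + RSD + minocycline against SS in the cortex, 0.00 as reported, was -0.021 with RLE size factors, -0.011 with no filter, -0.025 by DESeq2 and -0.012 in a model of only the groups compared. AA + RSD against AA turned to 0.52 in the cortex and 0.81 in the hippocampus by DESeq2, and to 0.33 and 0.60 without mice 5844, 5853, 7078 and 9631. AA + RSD + minocycline against AA turned to 0.092 and 0.39 by DESeq2. The causes were not tested. The mouse as a replicate block could be used only between tissues, since groups within a tissue hold different mice. With that pairing 4 members were called, Apol8 being added at 0.10, and it changed no other call. Apol11a, Apol9a and Apol6 rest on a few reads per library, and AA + RSD on 3 mice.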

Other observations

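Within SS mice, Apol11b also differed with the first digit of the mouse number, a split chosen after the values were seen and given without a test. In the cortex, mice whose number starts with 9 had 7.31 to 13.7 CPM in the SS group (n = 4), against 1.74 to 6.98 CPM in the others (n = 4). After RSD the ranges were 15.9 to 39.2 and 4.72 to 9.87 CPM (n = 3 each), and with minocycline 15.9 to 18.3 and 5.86 to 6.80 CPM (n = 2 each). In the minocycline group the first digit and the number series (B and C) cannot be told apart. With RSD and minocycline, the ranges overlapped at 5.29 to 19.7 (n = 7) and 3.07 to 9.85 CPM (n = 6). Hippocampus ranges overlapped in the SS group, at 7.80 to 13.5 (n = 4) and 1.84 to 8.38 CPM (n = 3). They did not overlap after RSD, at 10.1 to 31.2 and 4.14 to 6.87 CPM (n = 3 each), or with minocycline, at 18.8 to 21.3 and 4.30 to 5.81 CPM (n = 2 each). With RSD and minocycline they overlapped, at 5.26 to 17.2 (n = 7) and 2.79 to 6.56 CPM (n = 6). The summed level of the red cell precursor genes in the cortex was 163 to 181 against 119 to 143 CPM after RSD and 169.9 to 216 against 73.9 to 84.2 CPM with minocycline. It overlapped in SS mice without treatment, at 105 to 143 against 63 to 149 CPM. With RSD and minocycline it also overlapped, at 65.7 to 150 against 70.3 to 118 CPM. In the hippocampus this sum overlapped after RSD, at 109 to 146 against 103 to 120 CPM. It overlapped there in the SS and SS + RSD + minocycline groups too. With minocycline alone it did not, at 205 to 227 against 59.5 to 76.0 CPM.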
